A study of Mus musculus with 10 samples.

Results

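DNA damage repair genes were followed in murine pancreatic tumors grown under normal or high glucose. They were taken from the deposited table of normalized counts by matching mouse Ensembl identifiers to a list of 45 symbols, and all 45 were found among the 55359 genes of the table. The genes were named by known function, and the list was drawn up with earlier results of these data known. It holds 15 genes of homologous recombination, 9 of the Fanconi anemia pathway, 4 checkpoint kinases, 5 of end joining, 2 of mismatch repair, 3 of nucleotide excision repair and 7 of base excision and single-strand break repair.

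RNA sequencing was performed on 10 tumors. All were raised from Luciferase-expressing KPC K8484 cells, which come from a Pdx1-Cre mouse model and carry the mutant Trp53 R172H allele, placed in the pancreas of C57BL/6 mice at 10 weeks of age. In the first group 5 normoglycemic mice drank regular water (CTRL), and 5 hyperglycemic mice drank 30% dextrose water (D30) for 14 days. The titles of the samples call the tumors PDX, whereas their source is given as KPC K8484. Columns of the table are headed N1, N2, N4, N5 and N6, read here as CTRL by their initial, and T1, T2, T4, T5 and T7, read as D30 because it is the only other group. The tumors come from 1 cell line, no column can be tied to a given mouse, and the labels do not say whether mice shared a cage or a day.

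Cells meet several kinds of DNA damage and use a separate machinery for each. Breaks across both strands are joined end to end by the Ku proteins, DNA-PKcs and ligase IV, or copied from the sister chromatid by homologous recombination, in which BRCA1, BRCA2 and PALB2 take part. The Fanconi anemia proteins unhook crosslinks between strands, which are among the lesions left by platinum drugs. Mismatch repair corrects copying errors, nucleotide excision repair cuts out bulky adducts, and base excision repair removes oxidized or deaminated bases one at a time. The kinases ATM and ATR sense breaks and stalled forks and hold the cell cycle through CHK2 and CHK1. Many of these genes, homologous recombination and Fanconi genes above all, are transcribed mainly in S phase under E2F factors, so that their level in a tissue also follows how many cells divide.

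The letters that E2F factors read were searched in the promoters of the repair genes, since members that share them could be read as a group against the tumors below. RefSeq promoter windows (GRCm38.p6, 250 bases before to 50 after each start site) were found for 39 of the 45 genes. Rad50, Xrcc2, Rad51d, Nbn, Fancd2 and Prkdc had none. The words TTTGGCGC, TTTCCCGC, TTTCGCGC and TTTGCCGC were searched on both strands. They stood in 8 of the 39 genes (20.5%), against 704 of all 27025 genes with a window (2.6%), which include noncoding genes. The stretches are printed on the strand of the gene with the matching word in capitals, so that GCGGGAAA is TTTCCCGC read on the other strand.
Bard1, minus strand, chr1:71103163-71103192: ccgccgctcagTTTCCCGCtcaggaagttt
Brca2, plus strand, chr5:150522442-150522471: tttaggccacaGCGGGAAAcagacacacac
Chek2, plus strand, chr5:110839820-110839849: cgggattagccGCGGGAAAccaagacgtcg
Fancg, minus strand, chr4:43010335-43010364: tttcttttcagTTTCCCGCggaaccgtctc
Msh6, plus strand, chr17:87975054-87975083: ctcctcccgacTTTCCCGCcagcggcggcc
Nthl1, plus strand, chr17:24632539-24632568: ccgcgcgcgccTTTCGCGCgcaggtcctcc
Rad51c, minus strand, chr11:87404477-87404506: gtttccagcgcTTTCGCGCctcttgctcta
Rad51c, minus strand, chr11:87404941-87404970: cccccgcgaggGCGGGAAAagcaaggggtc
Xrcc6, plus strand, chr15:82016312-82016341: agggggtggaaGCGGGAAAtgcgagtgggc

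In Fancg and Xrcc6 the word began 52 and 46 bases before the start site. It began 209 bases before it in Bard1, 168 in Brca2, 152 in Chek2 and 132 in Nthl1. Rad51c has 2 listed start sites, each with its own word. In Msh6, and at the downstream start site of Rad51c, the word lay inside the transcript. CCAAT, the box of NF-Y, stood in 25 of the 39 genes (64.1%) against 41.1% of all genes, the GC box GGGCGG in 28 (71.8%) against 38.2%, and TTTGAA, a late cell cycle element, in 2 (5.13%) against 20.2%. The longer ETS word ACCGGAAG stood in 5 genes (12.8%), Lig4, Ogg1, Palb2, Rad51c and Xrcc4, against 2.60%. These are matches of letters, and binding was not measured.

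The 10 libraries held 29192261 to 42122304 reads, with 20482 (T5) to 25912 (N2) genes detected. Every repair gene was covered, the lowest single value being 21 reads, and their means ran from 148 to 3198 normalized counts. Reads of 4 Y-linked genes were found in T4 alone (841 reads, against 0 in every other tumor), while the methods state equal numbers of male and female mice. Keratins, Cdh1 and Muc1 were high in all tumors, whereas Epcam (0 to 192 normalized counts, 0 in T2) and Sox9 (19 to 354) were low. The sum of these 8 epithelial markers was 224679 to 355284 normalized counts in CTRL and 377561 to 500428 in D30 with no overlap, although 0 of the 8 were called (limma; Krt7, Krt19 and Krt8 had adjusted p = 0.0695, 0.169 and 0.283). All 8 fibroblast markers had a fold change below 0 (0 called), with sums of 76539 to 135533 against 26981 to 102553. Endothelial sums were 10874 to 18120 in CTRL and 5399 to 9713 in D30 (1 of 6 called, Cdh5). Islet sums were 13 to 1415 and 0 to 15 (4 of 6 called, all lower). Acinar sums, 272 to 57392 and 144 to 5710, were highest in N6 and N2. Macrophage sums were highest in T4 (69272) and N1 (57463), against 12665 to 42727 in the others, with medians of 32743 in CTRL and 20519 in D30 (6 of 8 markers lower and 1 called, Csf1r, lower). Neutrophil sums were highest in T5 (15446; 6 of 6 markers higher, 0 called), and 7 of 7 tested T and NK cell markers were lower (0 called). In whole tumors, fewer cells of a type and less RNA per cell cannot be told apart, and the part of these differences in the repair gene values was not tested.

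The first question was whether repair genes as a group were read at another level in D30. Each gene was tested with limma on log2(normalized count + 1), and p values were adjusted over all 24560 genes with a mean of at least 1. None of the 45 repair genes was called at an adjusted p under 0.05, where 2.76% of all tested genes were called. At an unadjusted p under 0.05, 4 repair genes passed (8.89%), against 17.3% of all genes. Prkdc, Lig4 and Rad52 were lower in D30 and Ercc1 was higher. On reads recovered from the normalized values, DESeq2 called 0 of 45 and edgeR 0 of 45. The DESeq2 background was 5.63% of the 33001 genes with a read, counting genes without an adjusted p as not called. For edgeR it was 4.13% of the 17127 genes kept by its filter. These shares and that of limma thus rest on different sets of genes.

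The direction leaned to lower values. The log2 fold change was below 0 for 34 of 45 genes (75.6%), and for 54.7% of all tested genes. The median log2 fold change of the 45 was -0.25, against -0.065 over all tested genes and -0.045 over the 8999 genes within the same range of mean counts. It stayed below 0 with each tumor left out in turn (-0.29 to -0.20). Without T4 and T5 together, a choice made after the values were seen, it was -0.084 against -0.027 over all genes. With scaling by library size in place of the deposited size factors, 44 of 45 genes were lower, at a median of -0.48, but the median of all genes then moved to -0.27.

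What these 10 tumors could resolve was limited by the spread in D30. The standard error of a log2 fold change ran from 0.16 to 0.55 with a median of 0.24. With the error of each gene as it was, a difference of 0.65 to 2.23 on the log2 scale (median 0.97) would have been needed for a call. The 95% interval stayed within a log2 fold change of 1 in either direction for 35 of the 45 genes, and for none did it reach 1 upward. It reached a fall of 1 or more for 10 genes, Brca1, Rad51b, Rad51c, Rad54l, Fanca, Fancb, Fancd2, Fancg, Fancm and Lig4, all in homologous recombination, the Fanconi anemia pathway or end joining.

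**Figure D1:**
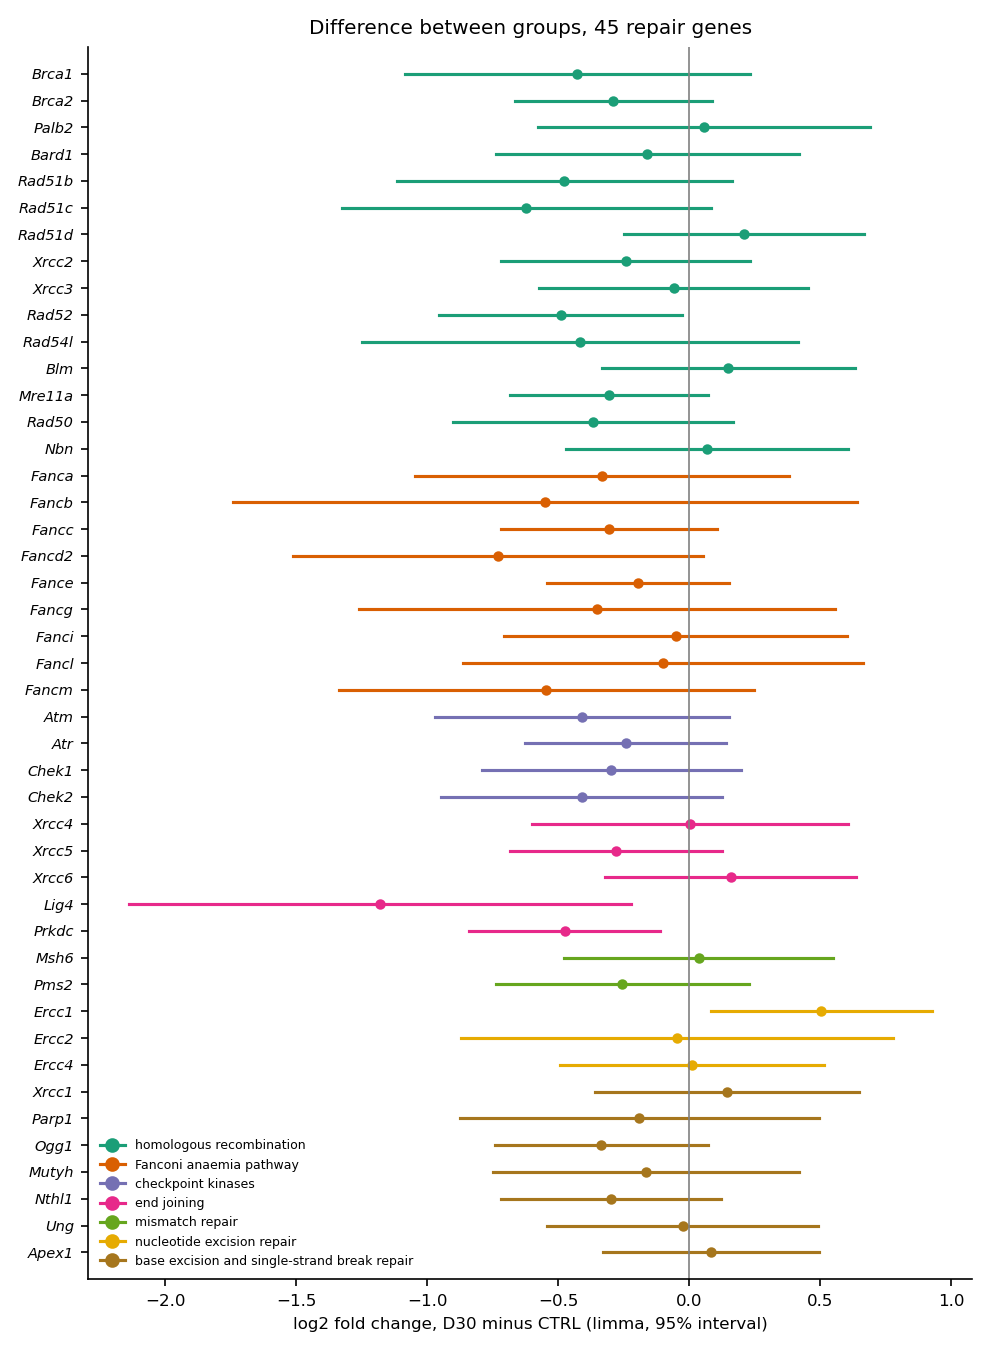
Log2 fold change (D30 minus CTRL, 5 tumors a group) of each of the 45 repair genes on the horizontal axis with its 95% interval from limma, colored by pathway. Most points lie left of 0 and most intervals cross it; Lig4, Prkdc and Rad52 lie wholly below and Ercc1 wholly above, none of them past the adjusted threshold.

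End joining held the gene with the lowest p and the gene with the lowest fold change. Below, values of a gene are normalized counts in the order N1, N2, N4, N5, N6 and then T1, T2, T4, T5, T7, fold changes are log2 differences (D30 minus CTRL) with their standard error, and adjusted p values are limma's with the Benjamini-Hochberg adjustment over all tested genes. Prkdc (chromosome 16, 15637866 to 15842235, GRCm38) encodes DNA-PKcs, the kinase that Ku recruits to a broken end. It was read at 1150, 1178, 1125, 1249 and 996 in CTRL and at 769, 792, 1004, 846 and 705 in D30. Only T4 reached the CTRL range, just above N6. The means were 1140 ± 92.8 and 823 ± 113 (SD, n = 5), and the fold change was -0.48 ± 0.17 (adjusted p = 0.166; limma). Prkdc came closest to a call of all 45 genes. Its adjusted p was 0.0596 with DESeq2 and 0.136 with edgeR, and it passed in limma once T4 was left out (adjusted p = 0.0371, fold change -0.55), where 6.43% of all genes passed. It also passed without N1 and T4 (0.0354, background 6.49%) and with library-size scaling (0.0361, background 3.51%).

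Lig4 (chromosome 8, 9969049 to 9977686) encodes ligase IV, which seals the break. Its CTRL values were 675, 543, 624, 600 and 525, and its D30 values were 485, 310, 485, 68 and 240. All 5 D30 tumors lay below all 5 CTRL tumors, as in 6.19% of all tested genes. The means were 593 ± 61.2 and 318 ± 177, and the fold change was -1.18 ± 0.44 (adjusted p = 0.191; limma). The exact permutation test over tumors gave p = 0.00794, the smallest that 5 against 5 allows (two-sided). Any gene with no overlap between groups gets this p, so it only restates the separation. T5 decided much of the size: without it the fold change was -0.70 (adjusted p = 0.150), and without T4 and T5 it was -0.84 (0.0262).

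Xrcc5 encodes Ku80 and was the most abundant repair gene per length, at 1009 normalized counts per kilobase of exon. It was read at 2480, 3009, 2865, 3021 and 2660 in CTRL and at 2817, 2338, 1563, 2698 and 2338 in D30. T1 and T5 lay within the CTRL range and T4 was lowest (-0.28 ± 0.19, adjusted p = 0.479, and -0.14 without T4). Its partner Ku70 (Xrcc6) had means of 1455 and 1689 and Xrcc4, the scaffold of ligase IV, of 467 and 496, with fold changes of 0.16 and 0.0043. When T4 and T5 were both left out, 4 repair genes passed against a background of 9.97%: Prkdc, Lig4 and Rad51b lower and Xrcc6 higher (0.50, adjusted p = 0.0299). These 4 rest on 3 D30 tumors and on a choice made after the values were seen.

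**Figure D2:**
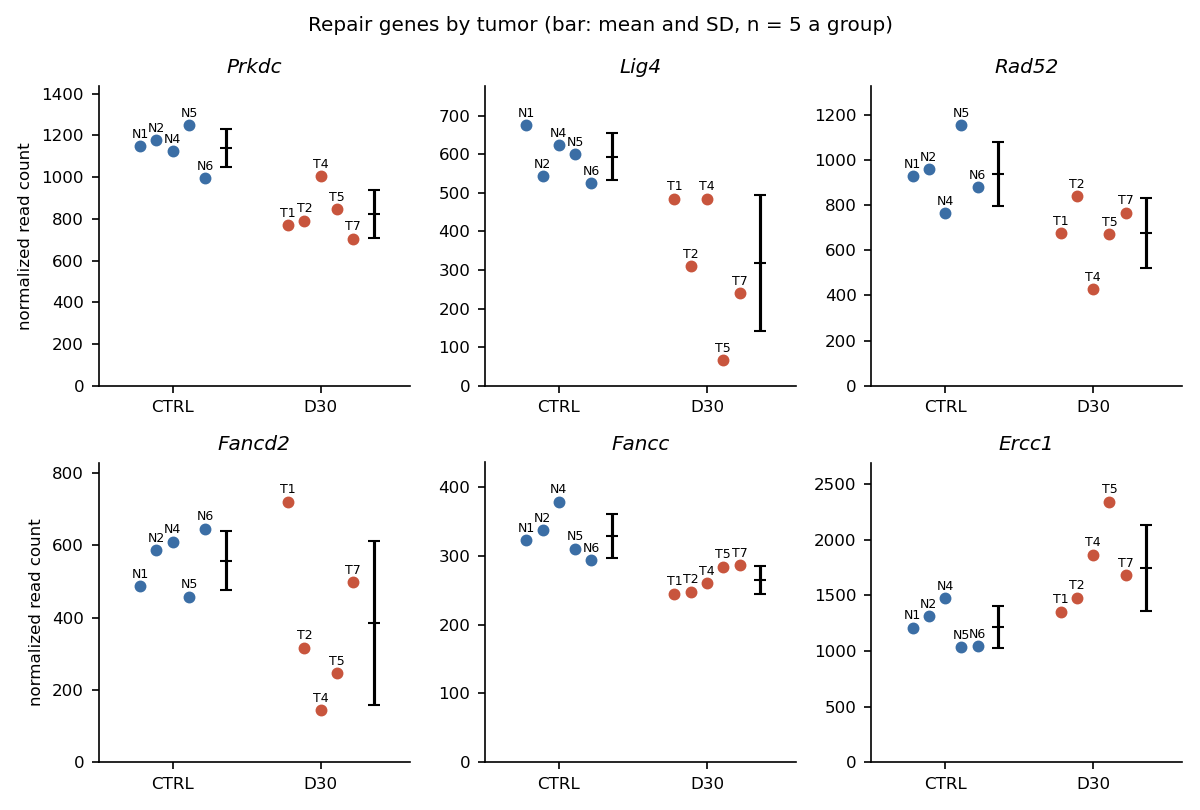
Normalized read counts (vertical axes, from 0) of 6 repair genes in each CTRL and D30 tumor, with the mean and SD of 5 tumors as a bar. Lig4 and Fancc do not overlap between groups; Fancd2 runs from 145 in T4 to 721 in T1 within D30.

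In homologous recombination the log2 fold change was below 0 for 11 of 15 genes, at a median log2 fold change of -0.29, and 1 gene had an unadjusted p under 0.05. That gene was Rad52, which anneals single strands. Its values were 927, 959, 763, 1154 and 879 in CTRL against 676, 840, 428, 672 and 767 in D30. T2 and T7 lay within the CTRL range and T4 was lowest (-0.49 ± 0.21, adjusted p = 0.261; without T4, -0.34). Brca2, a central factor of recombination, was read at 519, 599, 609, 545 and 606 and at 519, 470, 483, 492 and 395. The groups met only at N1 and T1, whose values round to the same number, and both groups were tight (576 ± 41.2 and 472 ± 46.6, -0.29 ± 0.17, adjusted p = 0.427).

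Rad51c and Rad51b, related proteins that sit in 1 complex, had fold changes of -0.62 ± 0.33 and -0.48 ± 0.30 (adjusted p = 0.354 and 0.442). Rad51c was read at 207, 170, 185, 166 and 149 and at 155, 124, 112, 50 and 167. Its lowest value was in T5, and without T5 the fold change was -0.34. Rad51b was read at 706, 600, 499, 463 and 365 and at 277, 234, 585, 555 and 325. Here T4 and T5 were the high D30 tumors, so leaving both out made the difference larger (-0.89, adjusted p = 0.0211), while leaving out T2 made it smaller (-0.31). Mre11a, the nuclease that starts resection and the most abundant gene of the group per length, was read at 1888, 1817, 2134, 1481 and 1860 and at 1749, 1480, 1209, 1343 and 1668 (-0.30 ± 0.18, adjusted p = 0.401). Its partner Rad50 had a fold change of -0.37, and Nbn, the last subunit of that complex, of 0.070. Brca1 and its partner Bard1 were at -0.43 and -0.16. Brca1 was split within D30: T4 (502), T5 (436) and T7 (920) were below every CTRL value, whereas T1 (1419) and T2 (1184) were above. The CTRL values spanned 965 to 1175. The remaining genes of this group, Palb2, Rad51d, Xrcc2, Xrcc3, Rad54l and Blm, lay between -0.42 (Rad54l) and 0.21 (Rad51d).

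All 9 Fanconi anemia genes had a lower mean of log2 values in D30 (median -0.33), and none had an unadjusted p under 0.05. The count was 7 of 9 without T4 (median -0.30), 7 of 9 without T5 (-0.22) and 6 of 9 without both (-0.091). Fancd2, which is ubiquitinated at crosslinks together with FANCI, was read at 487, 586, 610, 458 and 646 in CTRL. In D30 it was read at 721, 317, 145, 247 and 497. T1 was the highest of all 10 tumors and T4 the lowest (-0.73 ± 0.36, adjusted p = 0.324; -0.43 without T4). Fancc, a subunit of the core complex that ubiquitinates FANCD2, was read at 322, 337, 378, 310 and 293 and at 245, 247, 260, 284 and 287. It was the second repair gene with no overlap between groups, although the difference was small (-0.31 ± 0.19, adjusted p = 0.442; limma). Its exact permutation p of 0.00794 follows from that separation. In all, 2 of the 45 repair genes did not overlap (4.44%), against 6.19% of all tested genes. An antisense transcript, Gm16133, covers 16.4% of its exonic bases, and the setting by which strand was counted is not given in the sources used here.

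Fancm, the translocase that anchors the core complex, was read at 309, 304, 293, 386 and 329 and at 477, 263, 197, 86 and 247. As with Fancd2, T1 was highest, and T5 was lowest (-0.55 ± 0.37, adjusted p = 0.481). The fold change was -0.21 without T5 and -0.82 without T1. Fanca was read at 297, 520, 546, 420 and 602 and at 729, 435, 191, 315 and 353 (-0.33 ± 0.33, adjusted p = 0.656; -0.096 without T4 and -0.58 without T1). The gene Zfp276 overlaps 10.5% of its exonic bases on the other strand. Fance, the most abundant Fanconi gene per length, varied least of the 45 genes, 1.46-fold from lowest to highest. It was read at 1190, 1398, 1370, 1493 and 1447 and at 1022, 1145, 1263, 1353 and 1243 (-0.20 ± 0.16, adjusted p = 0.575). Fancb varied most, from 24 in T5 to 289 in N1 (-0.55 ± 0.55, and 0.047 without T5). Fancg, Fanci and Fancl were at -0.35 (0.042 without T4), -0.051 and -0.10.

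The 4 checkpoint kinases all had fold changes below 0, none with an unadjusted p under 0.05. Atm was read at 778, 659, 842, 1066 and 901 and at 999, 865, 414, 488 and 574 (-0.41 ± 0.26, adjusted p = 0.453, and -0.26 without T4). T1 and T2 lay inside the CTRL range and the other D30 tumors below it. Atr was narrow in CTRL, at 773, 730, 739, 802 and 750, and wider in D30, at 627, 616, 800, 691 and 507 (-0.24 ± 0.18, adjusted p = 0.523, and -0.16 without T7). Every D30 tumor but T4 was below the lowest CTRL value. Chek2, the effector kinase of ATM, was read at 1462, 802, 876, 794 and 932 and at 959, 734, 675, 444 and 867 (-0.41 ± 0.25, adjusted p = 0.429), with N1 well above the rest. The fold change was -0.25 without N1 and -0.24 without T5. Chek1, the effector of ATR, was at -0.30.

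Nucleotide excision repair held Ercc1, the gene with the highest fold change of the 45. The 11 genes with a fold change above 0 were spread over homologous recombination (4), end joining (2), mismatch repair (1), nucleotide excision repair (2) and base excision repair (2). Ercc1 (chromosome 7, 19344778 to 19356524) encodes the partner of the nuclease XPF, which cuts 5′ of an adduct and also works on crosslinks. Its CTRL values were 1210, 1316, 1477, 1038 and 1046, and its D30 values 1353, 1481, 1868, 2343 and 1681. All D30 tumors but T1 were above the highest CTRL tumor. The means were 1218 ± 186 and 1745 ± 387, with a fold change of 0.51 ± 0.20 (adjusted p = 0.200; 0.39 to 0.59 with each tumor left out in turn). It was 0.28 with library-size scaling (unadjusted p = 0.149) and 0.31 without T4 and T5 (unadjusted p = 0.0728). Of the 11 repair genes with a higher mean of log2 values in D30, Ercc1 was the one with an unadjusted p under 0.05. Ercc4, which encodes XPF itself, was read at 499, 763, 745, 768 and 680 and at 747, 672, 434, 970 and 728, so that the groups overlapped widely (0.011 ± 0.23, adjusted p = 0.988). Ercc2, a helicase of the repair factor TFIIH, was read at 297, 659, 557, 661 and 619 and at 709, 663, 179, 703 and 643 (-0.045 ± 0.38, adjusted p = 0.969). N1 and T4 stood apart, and 24.6% of its exonic bases are overlapped by the antisense transcript Gm26852 and 17.8% by Klc3.

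Msh6, which recognizes mismatches, was read at 2079, 2579, 2758, 2284 and 2486 and at 3123, 2551, 1328, 3268 and 2754 (0.036 ± 0.24, adjusted p = 0.959). Pms2, the nuclease subunit of the next step, was read at 1191, 954, 905, 987 and 977 and at 937, 741, 1352, 594 and 736 (-0.25 ± 0.22, adjusted p = 0.610; -0.43 without T4 and -0.13 without T5). T4 was the low tumor for Msh6 and the high tumor for Pms2.

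Of the 7 base excision genes 5 had a fold change below 0 and none had an unadjusted p under 0.05. Ogg1, the glycosylase for oxidized guanine, was almost constant in CTRL, at 917, 884, 880, 899 and 869 (a coefficient of variation of 2.1%). In D30 it was read at 605, 661, 1017, 601 and 715. T4 was above every CTRL tumor and the other D30 tumors were below all of them (-0.33 ± 0.19, adjusted p = 0.390; without T4 and T5, -0.43 and 0.0670). Nthl1, the glycosylase for oxidized pyrimidines, showed the same order, at 616, 587, 614, 647 and 610 and at 409, 430, 669, 451 and 586 (-0.30 ± 0.19, adjusted p = 0.466). Again T4 was the highest tumor, and T7 came close to the lowest CTRL value. The Camk1 gene overlaps 10.6% of the exonic bases of Ogg1 on the other strand.

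Parp1, the sensor of single-strand breaks, was read at 2732, 3414, 3138, 3496 and 3434 and at 4549, 3737, 1213, 2138 and 4130. D30 thus held the 3 highest and the 2 lowest tumors (-0.19 ± 0.32, adjusted p = 0.808), and the sign turned without T4 (0.12). Xrcc1, the scaffold that PARP1 recruits, was read at 1127, 1486, 1604, 1240 and 1513 and at 1667, 1495, 881, 1803 and 2114 (0.15 ± 0.23, adjusted p = 0.798, with 0.030 without T7 and 0.34 without T4). Mutyh, Ung and Apex1 were at -0.16, -0.025 and 0.085, and 61.7% of the exonic bases of Apex1 are shared with Pip4p1 on the other strand.

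The genes with an E2F word did not all differ in 1 direction. Their log2 fold changes were -0.62 for Rad51c, -0.41 for Chek2, -0.35 for Fancg, -0.30 for Nthl1, -0.29 for Brca2, -0.16 for Bard1, 0.036 for Msh6 and 0.16 for Xrcc6, none called by limma, edgeR or DESeq2. Of these 8, Msh6 and Xrcc6 were above 0.

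The SD of the log2 values was larger in D30 than in CTRL for 43 of the 45 repair genes (95.6%), all but Fancc and Xrcc3, and this was so for 84.4% of all tested genes. The median coefficient of variation of the repair genes was 12.5% in CTRL and 29.9% in D30. In D30 the coefficient was highest for Rad54l (62.8%), Fancd2 (59.0%) and Fancb (58.9%). The Fanconi genes did not share this, since Fancc had the lowest of the 45 (7.47%) and Fance had 10.5%. Lig4 had 55.6%. Without T4 the SD was larger in D30 for 35 genes (63.9% of all genes), without T5 for 39 (74.8%), and without both for 26 (41.5%). T4 or T5 was the lowest of all 10 tumors for 15 and 16 of the repair genes, and T1 was the highest for 13.

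**Figure D3:**
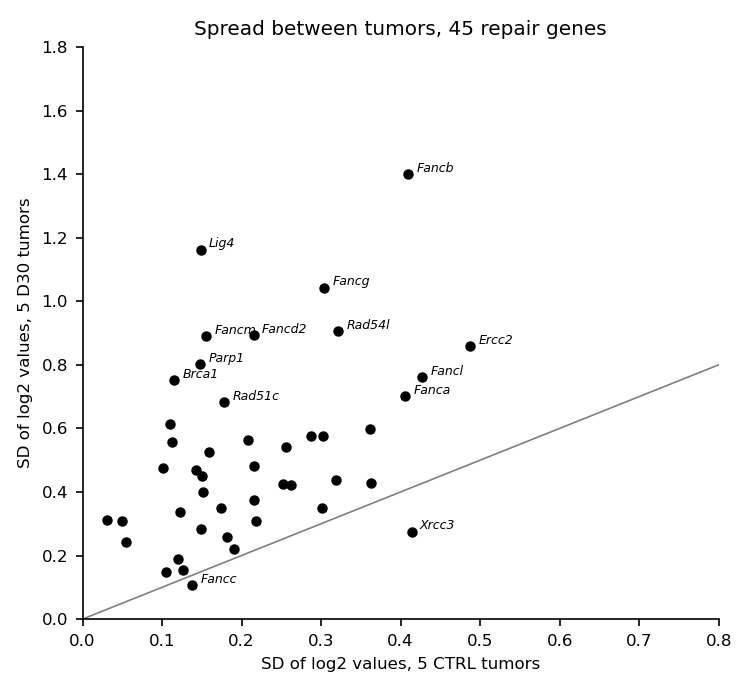
SD of log2(normalized count + 1) over the 5 D30 tumors (vertical) against the 5 CTRL tumors (horizontal) for each of the 45 repair genes, with the line of equal spread. In all, 43 points lie above the line, Fancb and Lig4 farthest, and Fancc and Xrcc3 lie below it.

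T4 and T5 were low for different genes. T5 was far below all others for Lig4 (68), Fancb (24), Fancm (86) and Rad51c (50). T4 was lowest for Parp1 (1213), Msh6 (1328), Rad50 (509), Fancd2 (145), Fancg (88) and Ercc2 (179), yet highest for Nbn (913), Xrcc4 (923), Fancl (655), Pms2 (1352), Ogg1 (1017) and Nthl1 (669). N1, the CTRL tumor with the highest macrophage sum, leaned the same way. Relative to the other tumors of its own group, N1 was below for Ercc2 (-1.07 on the log2 scale; T4, -1.92) and Fancg (-0.68; T4, -1.96). It was above for Fancl (0.69; T4, 1.35) and Nbn (0.64; T4, 0.94). Across the 45 genes these deviations of N1 and T4 had the same sign for 34, with r = 0.73 and rho = 0.73. The same sign was found for 83.3% of the 12215 genes with a mean of at least 100 (r = 0.54, rho = 0.79). Genes within a tumor share its library, so no test was made.

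**Figure D4:**
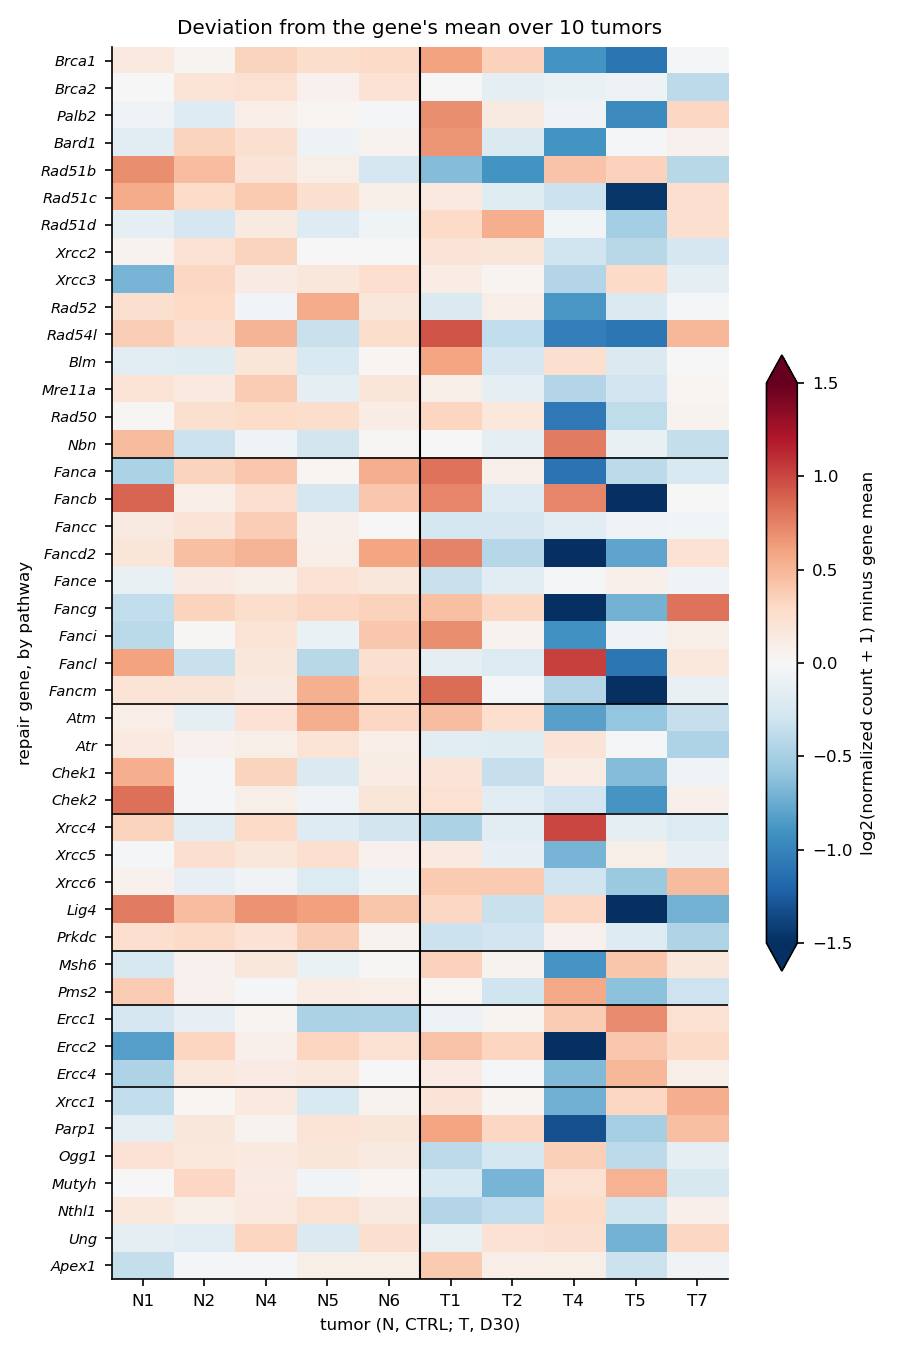
Log2(normalized count + 1) of each repair gene in each tumor minus the mean of the gene over 10 tumors, from blue (lower) to red (higher), grouped by pathway, CTRL left and D30 right of the line; deviations beyond 1.5 have the end color. CTRL columns are paler, N1 the least so, and the strongest colors are in T1, T4 and T5.

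Deviations were also summarized as a median per pathway and tumor, which does not show whether the genes of a pathway moved together. Among the Fanconi genes, T4 was the lowest tumor for Fancg and the highest for Fancl. The median deviation of the Fanconi genes ran from -0.70 in T5 and -0.44 in T4 to 0.70 in T1, and stayed between 0.077 and 0.34 in CTRL. Homologous recombination ran from -0.32 in T4 to 0.23 in N4, and base excision repair from -0.32 in T5 to 0.23 in T4. In 28 genes of cell proliferation the median deviation was lowest in T5 (-0.72), N5 (-0.39) and T4 (-0.32), and highest in T1 (0.42) and N4 (0.36). None of the 28 was called (1 at an unadjusted p under 0.05 by limma, 0 called by DESeq2 or edgeR). Their log2 fold change was below 0 for 24 of 28, at a median of -0.27. For the repair genes it was below 0 for 34 of 45, at a median of -0.25. With library-size scaling these medians were -0.50 and -0.48, and without T4 and T5 they were 0.077 and -0.084. Bub1, a spindle checkpoint kinase, had a fold change of -0.84 (adjusted p = 0.145), Mcm4, a helicase subunit, -0.36 (0.442) and Aurka, a mitotic kinase, -0.42 (0.483). By these medians, T4 and T5 were the lowest D30 tumors for proliferation genes and for Fanconi genes. Single Fanconi genes differed: Fancl was highest in T4 (655), and the highest D30 value of Fance was in T5 (1353). N5 also had the lowest CTRL median for Fanconi genes (0.077) and for homologous recombination (0.034), though above 0 in both. The part of proliferation in the repair values was not tested.

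Partner genes of 10 complexes were then set against each other as ratios of counts per kilobase of exon. These ratios were chosen after the gene values had been seen, and are given without a test. The ratio of Fancd2 to Fanci was 2.59, 2.33, 2.13, 1.97 and 1.97 in CTRL and 1.78, 1.23, 1.10, 1.04 and 1.89 in D30. It was the one ratio of the 10 that did not overlap, even though neither gene alone separated the groups. Polg overlaps 15.95% of the exonic bases of Fanci on the other strand. Lig4 to Xrcc4 had medians of 1.07 in CTRL (0.902 to 1.21) and 0.489 in D30 (0.132 to 1.19), with T1 inside the CTRL range. Xrcc5 to Xrcc6, the subunits of Ku, had medians of 3.38 (2.71 to 3.99) and 2.19 (1.92 to 4.55). Every D30 tumor except T5 was below the lowest CTRL tumor. Ercc1 to Ercc4 had medians of 3.73 (2.93 to 5.25) and 4.998 (3.92 to 9.32), and Rad51d to Xrcc2 of 4.81 (3.99 to 5.25) and 6.59 (5.19 to 7.84). Rad51b to Rad51c was 12.9 in T5 and 6.09 in T4, against 2.86 to 4.12 in CTRL and 2.08 to 2.27 in the other D30 tumors.

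**Figure D5:**
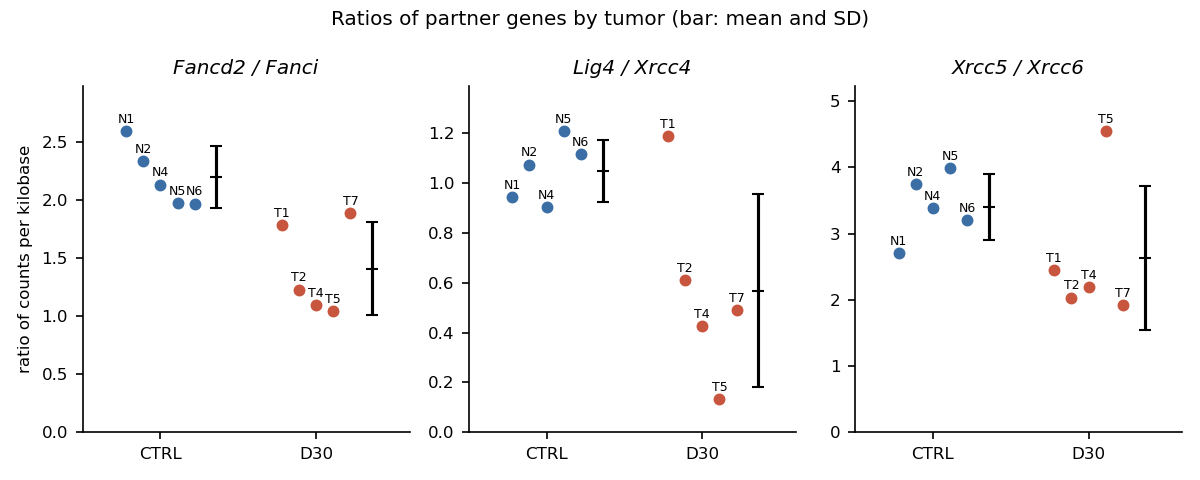
Ratio of counts per kilobase of exon (vertical axes, from 0) of 3 pairs of partner genes in each CTRL and D30 tumor, with the mean and SD of 5 tumors as a bar. Fancd2 / Fanci does not overlap between groups, Lig4 / Xrcc4 is lower in D30 in all tumors but T1, and Xrcc5 / Xrcc6 in all but T5.

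Other repair genes were read from a list of 110 in the same pathways. One of the 110 was called by limma (background 2.76%) and 75 had a lower log2 fold change than 0, at a median of -0.13. The groups did not overlap for 6 of the 110, where 6.19% of all tested genes did not overlap. The called gene was Neil2, a glycosylase for oxidized bases in open DNA, which was higher in D30. It was read at 50, 34, 33, 52 and 56 in CTRL and at 114, 84, 138, 133 and 101 in D30. The groups did not overlap (1.33 ± 0.30, adjusted p = 0.0324). The call was lost when N1, N2, N4, N5, N6, T1 or T7 was left out, so it stands near the threshold. Neil3, a glycosylase of dividing cells, was at -0.70 (adjusted p = 0.178).

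In end joining Dclre1c, the nuclease Artemis that DNA-PKcs activates, was read at 679, 690, 482, 719 and 655 and at 526, 407, 310, 294 and 376. T1 alone entered the CTRL range (-0.77 ± 0.22, adjusted p = 0.0817; DESeq2, 0.0171). Nhej1, a partner of XRCC4, was at -0.42 (0.365). Msh3, which recognizes larger loops, was read at 784, 733, 785, 760 and 740 and at 559, 550, 556, 612 and 560, with no overlap and little spread (-0.42 ± 0.16, adjusted p = 0.192; DESeq2, 0.0260). Mlh3 was at -0.60 (0.327). DESeq2 called 3 of the 110, Neil2, Dclre1c and Msh3, where it called 5.63% of its 33001 genes. With edgeR 1 was called, where 4.13% of its 17127 genes were.

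For homologous recombination, Rbbp8, the resection factor CtIP, was at -0.51 (0.178) with no overlap, and Swsap1 at -0.48 (0.245). For nucleotide excision repair, Gtf2h1 and Ercc3, both subunits of TFIIH, had no overlap and opposite signs, at 0.34 (0.266) and -0.32 (0.277). Trp53bp1, which shields breaks from resection, and Topbp1, an activator of ATR, were at -0.62 (0.288) and -0.38 (0.293). Of polymerases that copy past lesions, Polh was at -0.59 (0.256) and Rev3l at -0.47 (0.379). Faap20 and Fancf, of the Fanconi core complex, were at 0.33 (0.414) and -0.34 (0.480).

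Damage signaling also raises the targets of p53. The stated genotype of the tumor cells has 1 mutant Trp53 allele, and the tumors also hold host cells. Of 12 such transcripts 2 were called, both higher in D30, against 2.76% of all tested genes. The log2 fold change was above 0 for 8 of the 12 and below 0 for 4, the lowest being -1.005. At an unadjusted p under 0.05 (limma), 4 were higher and 1 was lower, where 17.3% of all genes passed. Btg2, an antiproliferative factor, was read at 1247, 870, 1163, 986 and 1177 and at 2065, 3318, 1711, 2936 and 2508 (1.18 ± 0.21, adjusted p = 0.0103). Gdf15, a secreted stress factor, was read at 12, 34, 58, 17 and 32 and at 109, 104, 80, 211 and 103 (2.08 ± 0.45, adjusted p = 0.0253). Neither gene overlapped between groups, and nor did Phlda3, an inhibitor of AKT (0.69 ± 0.20, adjusted p = 0.0922; without T4, 0.0393), so that 3 of 12 did not overlap, against 6.19% of all tested genes. All of them also respond to signals other than p53. Btg2 was called with each tumor left out in turn (adjusted p at most 0.0435), whereas the call of Gdf15 was lost without N1, N2, N5, N6, T2 or T7 (at most 0.0762). Without T4, 4 of the list were called, against 6.43% of all genes.

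Many repair genes share their start with a gene on the opposite strand, and 19 of the 45 had a tested coding gene starting within 1000 bases on the other strand (GENCODE M21). None of these neighbors was called (limma, DESeq2 or edgeR), and 1 had an unadjusted p under 0.05. That was Npat, a coactivator of histone genes that starts 307 bases from Atm. It was read at 976, 910, 899, 927 and 937 in CTRL and at 749, 763, 788, 746 and 569 in D30, with no overlap (-0.37, adjusted p = 0.273; Atm, -0.41). Mcm4 starts 466 bases from Prkdc and was at -0.36 beside -0.48. Abhd13 starts 21 bases from Lig4 and was at 0.0077 beside -1.18, and Emc3, 30 bases from Fancd2, was at -0.10 beside -0.73. The sign was shared by 14 of the 19 pairs, among them those of Tex14 and Pinlyp, with means of only 8.8 and 4.2 normalized counts. No background was computed for shared signs. Fold changes below 0 prevailed in the repair genes (34 of 45) and in all tested genes (54.7%).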

How the data were processed

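The authors prepared strand-specific libraries, sequenced them in pairs, aligned reads with STAR 2.7.0e and normalized with DESeq2. The submitters' notes name GRCm39, whereas the methods name hg38. The values the authors deposited are a signal per gene and tumor, namely DESeq2-normalized counts. All of them (100.0%) came out as whole reads, within 0.01, once the step of each tumor was divided out. Identifiers were matched without version to GENCODE M21 (GRCm38; 94.1% matched), and positions are those of M21. Genes with a mean of at least 1 were tested on log2(normalized count + 1) with limma 3.58.1 (R 4.3.3, trend), with Benjamini-Hochberg adjustment and calls at 0.05. DESeq2 1.42.0 and edgeR 4.0.16 were run on recovered reads. Other alternatives were pseudocounts of 0.5 and 10, other filters and scalings, and leaving out tumors. Scripts were tested on simulated data. Depth limits precision through counting error, and p values measure only the spread between these tumors. The genes and lists were chosen with earlier results of these data known. Given in full were the 3 genes with the lowest unadjusted p in each pathway (5 in homologous recombination and the Fanconi pathway) and the most abundant per length. For related genes the 2 lowest in each pathway were named, and for the proliferation and p53 lists the 3 lowest. Brca1, Fancb, Npat and Mcm4, Abhd13 and Emc3 were named after their values were seen.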

Additional observations from a re-analysis of the deposited data

Results flagged for a closer look

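In 10 of 90 groups of 5 tumors (45 genes, 2 groups), 1 tumor stood apart by Dixon's ratio of its gap to the whole range (above 0.71, which chance gives in about 5% of groups). In CTRL it was N1 each time. N1 was low for Xrcc3 (321 against 566 to 647 in the others, ratio 0.753), Fancg (230 against 356 to 377, 0.857), Ercc2 (297 against 557 to 661, 0.715) and Apex1 (530 against 667 to 722, 0.714). N1 was high for Chek2 (1462 against 794 to 932, 0.794) and Pms2 (1191 against 905 to 987, 0.714). In D30 it was T4 each time, high for Nbn (913 against 414 to 532, 0.765), Xrcc4 (923 against 331 to 414, 0.859) and Ogg1 (1017 against 601 to 715, 0.726), and low for Ercc2 (179 against 643 to 709, 0.875). These 2 tumors also have the highest macrophage sums, and T4 is the one with Y-linked reads. The part of either in these values was not tested.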

How the results depend on the processing

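No paired analysis was possible because the column numbers (1, 2, 4, 5, 6 and 1, 2, 4, 5, 7) are not the replicate numbers of the labels and the groups share no stated litter or day. Leaving out T4 and T5, or N1 and T4, was chosen after seeing the data. The count of repair genes called was 1 with library-size scaling, 1 without N1 and T4, 4 without T4 and T5, and 0 to 1 with each tumor left out. Their median log2 fold change was -0.48 with library-size scaling, -0.084 without T4 and T5, and -0.29 to -0.20 with each tumor left out. Related genes called were 3 with DESeq2, 2 with library-size scaling, 4 without T4 and T5 and 0 to 1 with each tumor left out. Proliferation genes called were 1 without T4 and T5 (Plk1, named after its value was seen), and p53 targets 5, with 1 to 4 when each tumor was left out. DESeq2 called 5.63%, but of 33001 genes rather than the 24560 of the main test. With limma the share of tested genes called also moved, from 2.76% in the main test to 3.51% with library-size scaling. It was 6.43% without T4, 6.49% without N1 and T4, and 9.97% without T4 and T5. Of the 25 genes given in full, 19 kept their sign under every alternative run. Ercc2 turned to 0.053 with DESeq2, 0.066 with edgeR, 0.00016 with upper-quartile scaling, 0.12 without N1 and T4 and 0.32 without T4 and T5 (-0.26 to 0.34 with each tumor left out). Ercc4 turned to -0.00083 with TMM and -0.21 with library-size scaling (-0.11 to 0.18), Msh6 to -0.19 with library-size scaling (-0.062 to 0.26) and Xrcc1 to -0.077 with it. Without T4 and T5, Fanca turned to 0.057 and Parp1 to 0.35 (0.056 without N1 and T4; -0.36 to 0.12). The cause was not tested. Pseudocounts and filters moved no call. With 5 tumors a group and the spread seen in D30, a gene had to differ by a median of 0.97 on the log2 scale to be called.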
